A study of Mus musculus with 34 samples.

Results

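Epididymal fat of mice labelled HF4 was compared with that of mice labelled HF3 on 4 two-colour microarrays, chosen because their titles pair these groups, out of 34 arrays in the series. HF4 mice were the offspring of HF3 mice, HF3 mice were the offspring of a group called HF2, and both ate a high fat diet. The comparison is therefore between adjacent generations of one high fat lineage and not between diets. Each array held RNA of one group in the dye Cy3 and RNA of the other in Cy5. There were 2 independent experiments, per the study's design, and each gave 2 arrays with the dyes exchanged, a dye swap. The extraction reagent was Trizol in experiment 1 and came from Qiagen in experiment 2, so experiment and extraction cannot be told apart. Further groups that a later check uses are STD, on a normal diet, HF0, the offspring of STD on the high fat diet, and HF1, the offspring of HF0 on that diet. Strain, age and the number of animals behind each RNA are not stated in the labels, and the labels do not say whether the arrays of a swap held different extracts.

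Epididymal fat is the abdominal depot of male rodents that lies against the epididymis, the duct in which sperm from the testis mature. Fat tissue stores triglyceride in adipocytes among blood vessels, stroma and immune cells, whereas the testis makes sperm in a fixed sequence. Spermatogonia divide and enter meiosis as spermatocytes, the products become round spermatids with an acrosome, and these exchange histones for transition proteins and then protamines while a flagellum is built. Many genes of these steps are known to be active almost solely in the testis, so their place in a comparison of fat is described first, stage by stage.

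The deposited value is a log ratio of the dyes, 1 per probe and array, and all values below are on that scale, taken as log2. The labels do not say which dye was the numerator. Each ratio was turned to read HF4 over HF3 as if Cy5 stood over Cy3, so a positive value means higher in HF4 if that holds, and every sign turns if Cy3 was the numerator. Genes on the same side moved the same way whichever holds, and values stay on the log scale throughout. The files hold no intensities, so levels of the defining markers of fat could not be read, dim spots stayed in, and precision is limited by the count of arrays. In bulk tissue, fewer cells of a type and less RNA per cell cannot be told apart. A gene was called when its mean over the 2 experiments differed from 0 at an adjusted p under 0.05 (limma, 2-sided, Benjamini-Hochberg over 22879 features), where each experiment entered as the mean of its dye swap. The fit had 1 residual degree of freedom and borrowed its error across features, so an adjusted p rests mainly on the typical spread of all features. Such p-values measure the spread between these experiments only. Below, the array values of an experiment are given with the array that holds HF4 in Cy3 first and the one that holds HF4 in Cy5 after it, and a mean over the experiments is given ± SE from limma (n = 2 experiments).

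Other arrays of the series pair HF4 and HF3 with another group, and the pairings of 3 groups should close, the ratio of the first group to the second and that of the second to the third adding up to that of the first to the third. In experiment 2 the 4 such triangles had median gaps of 0.04, −0.18, −0.17 and 0.02 over 139 measured genes of the male germ line. The direct median of HF4 over HF3 for these genes in experiment 2 was 0.43. In experiment 1 the triangles HF4, HF3, STD and HF4, HF0, STD had gaps of −0.32 and −0.11, where the direct median was 0.70. Over all features the SD of the gap in these triangles was 0.447 and 0.553, against an SD of 0.327 for the direct values. The remaining triangles, HF4, HF3, HF0 and HF3, HF0, STD, had germ line gaps of 1.17 and 1.23, with SDs over all features of 0.621 and 0.677. Both contain the experiment 1 arrays labelled HF3 with HF0. For 23 adipocyte genes the gaps in experiment 1 were −0.88 and −0.51 in the triangles with HF3 and HF4 that end in HF0 and STD, 0.87 in that of HF4, HF0 and STD, and 0.06 in that of HF3, HF0 and STD. The adipocyte gaps therefore did not follow the arrays labelled HF3 with HF0 in the way the germ line gaps did, since a triangle without these arrays had a wide gap and one with them a small one. For genes of the epididymis the experiment 1 gaps were 0.45 in HF4, HF3, HF0 and 0.04 in HF4, HF3, STD. They were −0.89 in HF4, HF0, STD and −0.46 in HF3, HF0, STD, so the widest was in a triangle without the arrays of HF3 with HF0. The 4 arrays described here do not include the arrays of HF3 with HF0. Every value of experiment 1 taken through HF0 rests on them and equally on the arrays of HF4 with HF0. Where the gaps came from was not tested.

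Between HF4 and HF3, 477 of 22879 features were called (2.08%), of which 452 were positive (1.98% of all features) and 25 negative (0.109%). Among features with a gene symbol the calls were 413 positive and 20 negative. In 475 of the 477 all 4 arrays had the same sign. Over all features, 9.81% had 4 positive and 9.31% had 4 negative arrays, so the signs alone were nearly balanced and the excess of positive calls was in the larger values. Positive calls ran from 0.82 to 2.24, with medians of 1.29 in experiment 1 and 1.16 in experiment 2, and negative calls from −0.85 to −1.76, with medians of −0.92 and −1.26. The median over all features was 0.01. Leaving out 1 array changed the counts. It leaves the experiment of that array with only 1 dye orientation, so a dye effect no longer cancels there. Without the array of experiment 1 that holds HF4 in Cy3 there were 198 calls (4 negative), and without that of experiment 2 with HF4 in Cy5 there were 195 (5 negative). Without the one of experiment 1 with HF4 in Cy5 there were 68 negative calls, and without that of experiment 2 with HF4 in Cy3 there were 100. Equalising the spread of the arrays (scale normalization) left 0 calls by limma, with a lowest adjusted p of 0.121 and 2907 features at an unadjusted p under 0.05, against 2842 without it. A whole-series fit also left 0, with 1259 at that unadjusted level. It did not take the 34 arrays as separate values. Group values were solved from all pairings within each experiment, and limma was run on these. Its error came from how group values differed between the experiments, the arrays labelled HF3 with HF0 included. Quantile normalization gave 1004 calls, 71.9% of them positive against 94.8%.

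**Figure D1:**
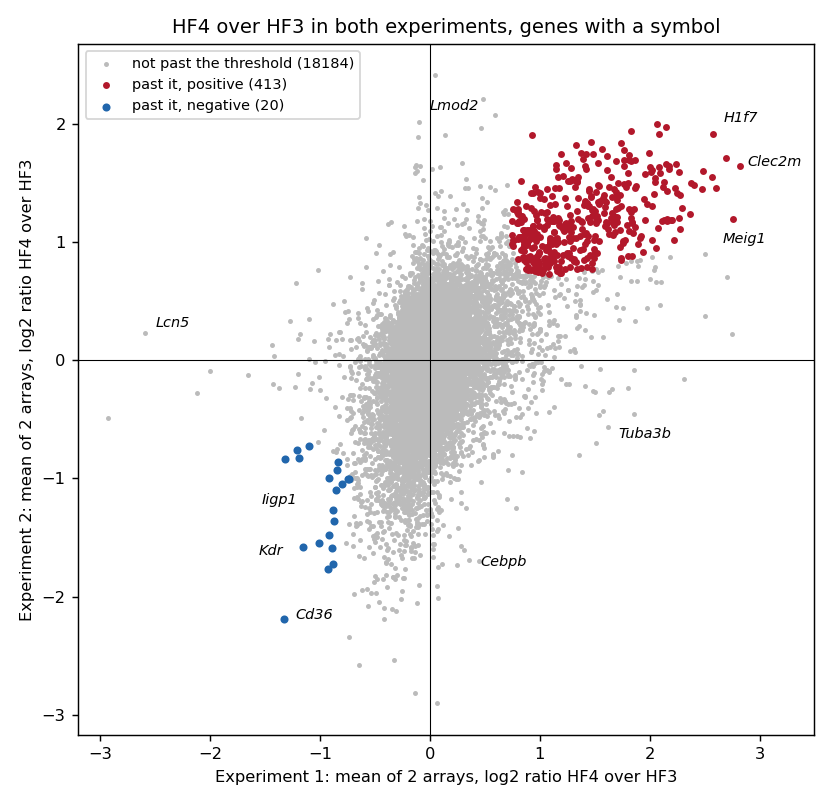
Log2 ratio of HF4 over HF3 (coded as Cy5 over Cy3) in experiment 1 on the horizontal axis and in experiment 2 on the vertical axis, for 18617 genes with a symbol, each experiment being the mean of 2 arrays. The 413 positive calls in red form one cloud at the upper right, the 20 negative calls in blue lie at the lower left, and genes such as Lcn5, Tuba3b and Cebpb lie in the quadrants where the experiments differ in sign.

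Genes of the male germ line were on the positive side. Of 139 measured genes on 7 lists of germ line genes, 35 were called, all positive, 73 had 4 positive arrays and 3 had 4 negative arrays, and their median was 0.53. Over all features 1.98% were called positive, 9.81% had 4 positive arrays and 9.31% had 4 negative arrays. Counts of every list below are to be read against these shares. The medians of these 139 genes on single arrays were 0.68 with HF4 in Cy3 and 0.65 with HF4 in Cy5 in experiment 1, and 0.41 and 0.49 in experiment 2. The median was thus positive on all 4 arrays, higher in experiment 1 than in experiment 2.

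Spermatogonia genes, which mark the dividing cells at the start of the sequence, stood apart from the later stages. Of 16 measured, 1 was called and the median was 0.08, with 3 genes at 4 positive and 3 at 4 negative arrays. The called gene was Dmrtb1, a transcription factor that acts where spermatogonia pass into meiosis, at 1.69 ± 0.27 with an adjusted p of 0.0364. The genes with 4 negative arrays were Id4, Kit and Lin28a. Kit, the stem cell factor receptor, gave −0.36 and −0.47 in experiment 1 and −0.98 and −0.39 in experiment 2, with a mean of −0.55 ± 0.15 and an adjusted p of 0.198; it is also a gene of mast cells.

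Meiosis genes were on the positive side. Of 22 measured, 7 were called, 13 had 4 positive arrays and none had 4 negative arrays, with a median of 0.54. Meig1, which is expressed in meiosis and later needed for the sperm tail, gave 2.42 and 3.10 in experiment 1 and 1.13 and 1.26 in experiment 2. Its experiment 1 arrays were both above its experiment 2 arrays, and the mean was 1.98 ± 0.34 with an adjusted p of 0.0453. Sycp3, a component of the axis along which homologous chromosomes pair, gave 1.74 and 1.87 in experiment 1 and 1.15 and 0.62 in experiment 2 and a mean of 1.34 ± 0.23 (adjusted p = 0.0456). Smc1b, the cohesin subunit particular to meiosis, gave 1.49 and 1.50 in experiment 1 and 0.64 and 1.25 in experiment 2 and a mean of 1.22 ± 0.18 (adjusted p = 0.0296). The remaining calls were Syce2 at 0.92 and Syce3 at 1.08, both central elements of the synaptonemal complex, the cyclin Ccna1 at 0.96 and the spermatocyte chaperone Hspa2 at 0.97.

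Genes of the piRNA pathway, which silences transposons in germ cells, had 2 calls among 17 measured and 7 with 4 positive arrays, at a median of 0.35. Gtsf1, a partner of the Piwi proteins, gave 2.02 and 2.10 in experiment 1 and 1.18 and 0.72 in experiment 2, a mean of 1.50 ± 0.26 and an adjusted p of 0.0468. The helicase Tdrd9 was also called at 1.03 ± 0.16, but its arrays were uneven within each swap, with 1.27 and 0.39 in experiment 1 and 0.04 and 2.40 in experiment 2. Mael reached a mean of 1.70 ± 0.42 without being called (adjusted p = 0.139), since experiment 1 gave 2.70 and experiment 2 gave 0.71. The helicase Ddx4, a general germ cell marker, gave 1.68 and 1.98 in experiment 1 and 0.97 and 0.37 in experiment 2 and was likewise not called (adjusted p = 0.0923).

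Round spermatid genes had the most calls of any list, 11 of 29 measured, with 21 at 4 positive arrays, none at 4 negative arrays and a median of 0.72. Pdcl2, a phosducin-like protein of spermatids, gave 2.49 and 2.89 in experiment 1 and 1.40 and 2.03 in experiment 2, and its mean of 2.21 ± 0.24 had an adjusted p of 0.0145. Spaca1, a membrane protein of the acrosome, gave 1.88 and 2.10 in experiment 1 and 1.95 and 1.56 in experiment 2, close values on all 4 arrays, with a mean of 1.87 ± 0.15 and an adjusted p of 0.0142. Spz1, a leucine zipper protein of the testis, gave 1.81 and 2.29 in experiment 1 and 1.07 and 2.01 in experiment 2 and a mean of 1.80 ± 0.18 (adjusted p = 0.0142). The other calls on the list were Plcz1 at 1.58, the sperm phospholipase that activates the egg, the kinases Tssk1 at 1.54 and Tssk3 at 1.36, the acrosomal proteins Acrv1 at 1.39 and Spaca7 at 1.34, Izumo1 at 1.11, which sperm need to fuse with the egg, the sperm calcium channel Catsper1 at 0.91, and Crisp2. Crisp2, a cysteine-rich protein of the acrosome and tail, gave 1.93 and 2.48 in experiment 1 and 0.54 and 1.84 in experiment 2, with a mean of 1.70 ± 0.25 and an adjusted p of 0.0282.

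Genes that pack sperm chromatin had the highest median of all lists, 1.03, with 5 calls among 13 measured and 7 at 4 positive arrays. H1f7, a linker histone of spermatids, was the most positive gene of the comparison, with 2.41 and 2.74 in experiment 1 and 1.89 and 1.95 in experiment 2. Its mean was 2.24 ± 0.19 and its adjusted p 0.0142. Tnp2, a transition protein that replaces histones, gave 2.17 and 2.80 in experiment 1 and 1.26 and 1.95 in experiment 2 and a mean of 2.05 ± 0.23 (adjusted p = 0.0146). The histone variant H2bl1 gave 2.19 and 1.96 in experiment 1 and 1.74 and 2.27 in experiment 2, nearly level between the experiments, and a mean of 2.04 ± 0.15 (adjusted p = 0.0142). H2al2a, another histone variant of spermatids, was called at 1.77. Prm1, a protamine, gave 1.59 and 2.998 in experiment 1 and 0.59 and 2.00 in experiment 2, with a mean of 1.79 ± 0.24 and an adjusted p of 0.023. Its partner protamine Prm2 gave 0.43 and 1.55 in experiment 1 and −1.16 and 1.39 in experiment 2 and was not called (adjusted p = 0.391), nor was the transition protein Tnp1, which gave 1.89 and 3.13 in experiment 1 and −0.10 and 1.90 in experiment 2 (adjusted p = 0.0748). In Prm1, Prm2 and Tnp1 the array with HF4 in Cy5 lay above its partner in both experiments by more than 1 unit, a gap that the mean of a swap averages over.

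The promoters of genes at both ends of the comparison are shown here, 250 bases up to the transcription start, because germ line genes moved together and the cAMP response element is known from promoters of spermatid genes. The sequences are those of RefSeq on GRCm38.p6, read 5′ to 3′ on the strand of the gene, and capitals mark the short motif TGACG or its reverse complement CGTCA. H1f7 (chr15:98257308-98257557, minus strand) held 1 such motif, at −180 from the start. Dnajb3 (chr1:88205749-88205998, minus strand), a called chaperone gene of spermatids, held 2, at −116 and −22. Cd36 (chr5:17835897-17836146, minus strand), the most negative gene of the comparison, held none.
H1f7: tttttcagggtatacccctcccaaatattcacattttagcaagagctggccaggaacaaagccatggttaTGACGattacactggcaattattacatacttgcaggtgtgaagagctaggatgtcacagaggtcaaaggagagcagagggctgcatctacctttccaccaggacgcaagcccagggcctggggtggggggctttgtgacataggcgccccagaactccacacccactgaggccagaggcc
Dnajb3: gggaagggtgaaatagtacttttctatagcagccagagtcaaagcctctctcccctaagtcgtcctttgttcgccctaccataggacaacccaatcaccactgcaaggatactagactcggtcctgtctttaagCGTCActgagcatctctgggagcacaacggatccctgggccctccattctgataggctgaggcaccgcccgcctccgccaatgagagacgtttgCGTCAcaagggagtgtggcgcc
Cd36: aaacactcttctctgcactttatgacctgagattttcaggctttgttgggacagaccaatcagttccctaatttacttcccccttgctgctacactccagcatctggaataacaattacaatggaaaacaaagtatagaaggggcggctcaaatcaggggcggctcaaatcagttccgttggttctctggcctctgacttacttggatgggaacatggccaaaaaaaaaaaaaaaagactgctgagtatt
In a window of 300 bases that also takes in the first 50 transcribed bases, on both strands, the short motif was present for 82 of 339 positively called genes with a promoter in the table (24.2%), for 4 of 17 negatively called genes (23.5%) and for 23.05% of all 27025 symbols. The whole element TGACGTCA, which contains the short motif, was present for 11 of 339 (3.24%), none of 17 and 2.03%. Tnp2, Prm1, Pdcl2, Clec2m and H2bl1 held no short motif in this window. These are matches of letters and say nothing of binding.

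Sperm flagellum genes had 8 calls among 30 measured, 16 at 4 positive arrays and a median of 0.58. Ropn1l, a ropporin-like protein of the fibrous sheath, gave 2.32 and 2.88 in experiment 1 and 1.10 and 1.82 in experiment 2, with a mean of 2.03 ± 0.27 and an adjusted p of 0.0203. Odf2, a protein of the outer dense fibres, gave 1.87 and 2.45 in experiment 1 and 1.06 and 1.81 in experiment 2 and a mean of 1.80 ± 0.20 (adjusted p = 0.0155). Meig1, which is on this list too, was described above. Spag6l of the axoneme was called at 1.55, the anchoring protein Akap3 at 1.44, Cabyr at 1.34, Smcp of the mitochondrial sheath at 1.32 and Ropn1 at 0.87. Other well known tail genes were not called. Odf1 gave 1.18 and 1.33 in experiment 1 and 0.39 and 0.79 in experiment 2 (adjusted p = 0.0858), and Akap4, the main scaffold of the fibrous sheath, gave 0.12 and 1.26 in experiment 1 and −0.26 and −0.45 in experiment 2, so that the experiments lay on opposite sides.

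Sperm energy genes, many of which encode testis forms of glycolytic enzymes, had 2 calls among 15 measured, 8 at 4 positive arrays and a median of 0.64. Gk2, a glycerol kinase of the testis, gave 1.96 and 2.58 in experiment 1 and 1.37 and 1.04 in experiment 2, with a mean of 1.74 ± 0.25 and an adjusted p of 0.0284. The other call was Adam3, a sperm surface protein and no enzyme of energy metabolism, at 1.72 ± 0.19 (adjusted p = 0.0146). Ldhc, the lactate dehydrogenase of sperm, gave 2.29 and 2.72 in experiment 1 and 0.37 and 0.38 in experiment 2. It was on the positive side on every array, but experiment 1 was far above experiment 2 and the gene was not called (adjusted p = 0.236).

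Most of the positive calls were outside these lists, 378 of the 413 with a symbol. Clec2m, a gene of the C-type lectin family, gave 2.30 and 3.35 in experiment 1 and 1.67 and 1.62 in experiment 2, with a mean of 2.23 ± 0.27 and an adjusted p of 0.0172, the second most positive gene. The others among the 12 most positive were 1700034E13Rik, named after a cDNA clone, at 2.06 ± 0.15, Tctex1d1, a dynein light chain relative, at 2.00 ± 0.15, the kinesin Kif2b at 1.96 ± 0.25, Fam205c at 1.95 ± 0.18, and Dnajb3. Dnajb3 gave 2.56 and 2.58 in experiment 1 and 1.22 and 1.89 in experiment 2 and a mean of 2.06 ± 0.25 (adjusted p = 0.0166). Each of these 12 genes was above 1 on all 4 arrays.

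Gene families known from the testis were read against the 2.22% of all 18617 genes with a symbol that were called positive; the families were chosen after values of these data had been seen. Of 24 genes named Spata (spermatogenesis associated), 9 were called positive, at a median of 0.74. For Tex (testis expressed) genes it was 8 of 32, for Cfap (cilia and flagella associated) genes 5 of 21, for Adam genes 4 of 28, for Spaca genes 3 of 5 and for Iqcf genes 3 of 4. None of 13 Dnah axonemal dynein heavy chains and none of 5 Tekt genes was called. The Slc transporters, a family of many tissues, gave 3 of 349 (0.860%). Among genes still named after RIKEN clones, those whose number marks a clone series made largely from testis libraries gave 91 calls of 987 (9.22%), and the remaining clones gave 6 of 731 (0.821%).

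Lists of general cell functions also held positive calls. Of 19 measured heat shock genes 4 were called, namely Dnajb3, Hspa4l, Hspa1l and Hspa2, and all of these are known for high expression in the testis; the list's median was 0.11. Hspa4l gave 1.99 and 2.04 in experiment 1 and 1.08 and 2.10 in experiment 2 and a mean of 1.80 ± 0.17 (adjusted p = 0.0142), and Hspa1l a mean of 1.16 ± 0.15 (adjusted p = 0.0182). Of 23 measured cell cycle genes only Cdkn3, a phosphatase of cyclin-dependent kinases, was called, with 1.26 and 1.30 in experiment 1 and 1.31 and 1.04 in experiment 2, at a list median of 0.05.

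**Figure D2:**
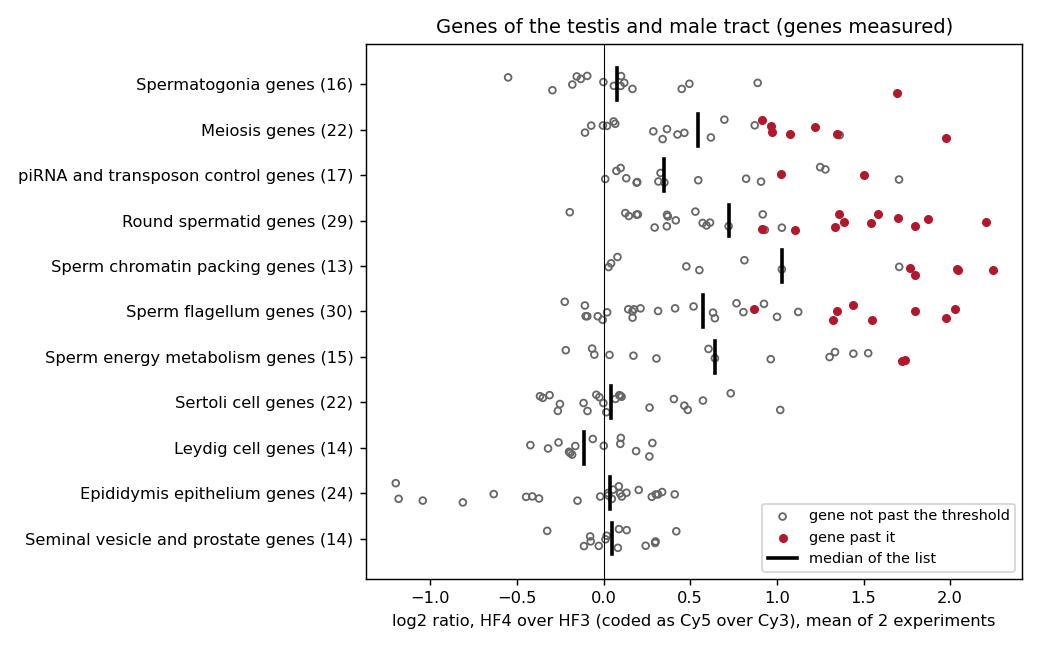
Log2 ratio of HF4 over HF3 (coded as Cy5 over Cy3), mean of 2 experiments, for each measured gene of 11 lists, with called genes in red, others as open circles and the list median as a bar. The chromatin packing list had a median of 1.03 and the round spermatid list one of 0.72. No gene of the Sertoli, Leydig, epididymis, seminal vesicle and prostate lists was called, where 1.98% of all features were called positive.

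Lists of other cell types of the testis and the male tract held no call. Over all features 1.98% were called positive, so lists of this size can hold none without differing from that share. Of 22 Sertoli cell genes measured none was called and the median was 0.04. There were 5 at 4 positive arrays (22.7%, against 9.81% of all features) and 1 at 4 negative arrays (4.55%, against 9.31%). Sertoli cells nurse the germ cells. Defb19 gave 1.34 and 1.46 in experiment 1 and 0.43 and 0.84 in experiment 2 and Cst12 0.68 and 0.77 in experiment 1 and 0.84 and 0.65 in experiment 2, both near the threshold at adjusted p-values of 0.0769 and 0.0687, and the Sertoli hormone Amh had a mean of 0.07 ± 0.18. Of 14 Leydig cell genes, which serve androgen synthesis, none was called and the median was −0.11; Star had a mean of 0.26 ± 0.16 and Cyp17a1 of 0.10 ± 0.15.

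The epididymis lies beside this fat depot, and its 24 measured genes gave no call, 2 genes at 4 positive arrays and 3 at 4 negative arrays, and a median of 0.04. Its members were not uniform. Lcn5, a lipocalin that epididymal epithelium secretes, gave −2.62 and −2.57 in experiment 1 and 0.03 and 0.43 in experiment 2. On these arrays it was low in experiment 1 alone. Spink12, a protease inhibitor of the epididymis, was also far lower in experiment 1, but negative on all 4 arrays. It gave −2.07 and −2.18 in experiment 1 and −0.08 and −0.47 in experiment 2. Arrays with another group gave less uniform values in experiment 1. Lcn5 was −0.45 through STD and −2.43 through HF0, and Spink12 was −0.05 and −2.46. In experiment 2 Lcn5 was 0.26 through HF0 and 0.15 through HF1, whereas Spink12 was 1.64 and −0.13. Of 14 seminal vesicle and prostate genes none was called and the median was 0.05.

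**Figure D3:**
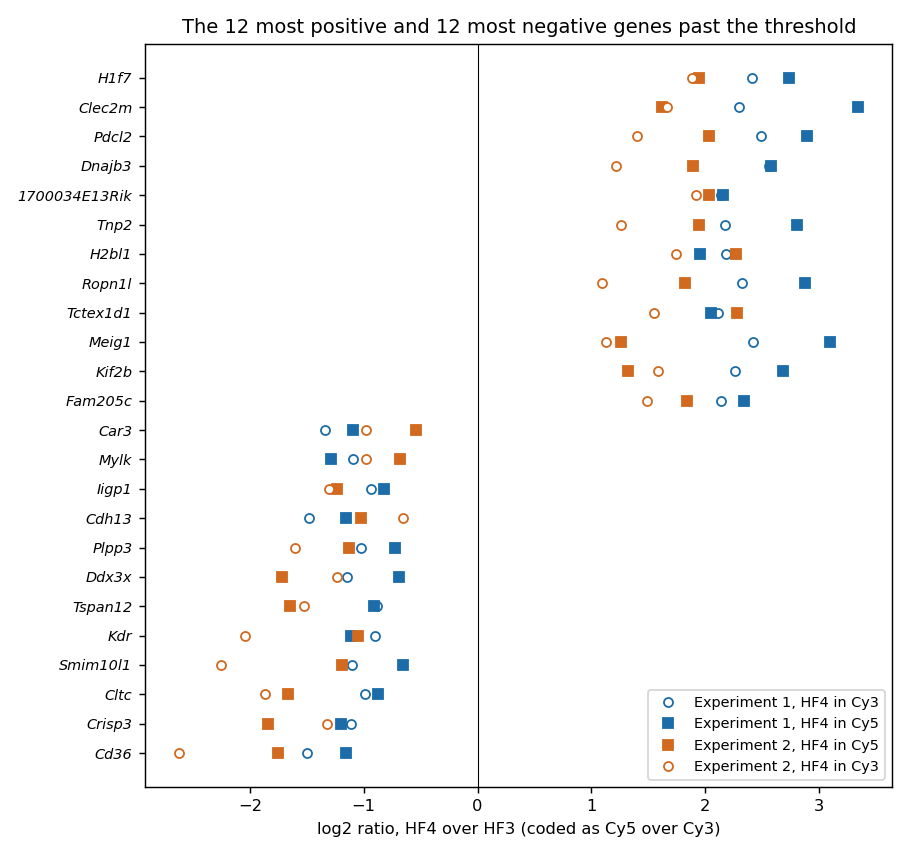
Log2 ratio of HF4 over HF3 (coded as Cy5 over Cy3) on each of the 4 arrays for the 12 most positive and the 12 most negative called genes, with experiment 1 in blue, experiment 2 in orange, open circles for HF4 in Cy3 and squares for HF4 in Cy5. H1f7 lay between 1.88 and 2.74 and Cd36 between −2.62 and −1.15; genes were plotted only where all 4 arrays had the same sign.

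On the negative side, genes of fat and of its vessels were among the few calls. Cd36, the transporter that brings fatty acids into adipocytes and capillary cells, gave −1.50 and −1.15 in experiment 1 and −2.62 and −1.75 in experiment 2, with a mean of −1.76 ± 0.22 and an adjusted p of 0.0183. All 4 arrays lay below −1. Aqp7, the channel through which adipocytes release glycerol, gave −0.83 and −0.86 in experiment 1 and −1.02 and −0.83 in experiment 2, with a mean of −0.88 ± 0.15 and an adjusted p of 0.0397. Car3, a carbonic anhydrase abundant in fat, gave −1.34 and −1.09 in experiment 1 and −0.98 and −0.54 in experiment 2 and a mean of −0.99 ± 0.17 (adjusted p = 0.0458).

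The adipocyte list as a whole did not follow these genes. Of 23 measured, Cd36 and Aqp7 were called, 4 had 4 negative arrays and none had 4 positive arrays, with medians of −0.26 in experiment 1 and 0.04 in experiment 2. The hormone leptin (Lep) gave 0.11 and −0.05 in experiment 1 and 0.49 and 0.39 in experiment 2, and adiponectin (Adipoq) gave −0.57 and 0.03 in experiment 1 and 0.95 and 0.22 in experiment 2. Pparg, the main transcription factor of adipocytes, gave −1.02 and −1.08 in experiment 1 and −0.16 and 0.48 in experiment 2, negative in experiment 1 and mixed in experiment 2. Neither these nor resistin (Retn), at −0.27 ± 0.23, was called.

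Lists of lipid and energy metabolism had no call and medians close to 0. The lipogenesis list stood at −0.09 with 5 of 22 at 4 negative arrays, among them Scd1, the fatty acid desaturase, with −1.01 and −0.30 in experiment 1 and −1.11 and −0.91 in experiment 2 (adjusted p = 0.0642), and Acly, which makes cytosolic acetyl-CoA, with −0.65 and −0.68 in experiment 1 and −1.59 and −0.50 in experiment 2 (adjusted p = 0.0624). Fasn, fatty acid synthase, had a mean of 0.14 ± 0.15. Genes that mark fat mass expansion, 10 measured, had 5 at 4 negative arrays and a median of −0.16; the caveolin Cav2 gave −1.01 and −0.70 in experiment 1 and −0.99 and −0.56 in experiment 2 (adjusted p = 0.0517) and the imprinted gene Mest −0.53 and −0.29 in experiment 1 and −0.38 and −1.07 in experiment 2 (adjusted p = 0.195). The medians were −0.09 for 23 fatty acid oxidation genes, −0.10 for 30 genes of oxidative phosphorylation, −0.04 for 13 brown fat genes, −0.04 for 18 cholesterol synthesis genes and −0.10 for 22 genes of insulin and glucose signalling. Pdpk1, the kinase that activates Akt, was on the positive side with 0.80 and 0.75 in experiment 1 and 0.50 and 0.96 in experiment 2 (adjusted p = 0.0637), and Ucp1, the uncoupling protein of brown fat, had a mean of 0.08 ± 0.15.

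Endothelial markers had the most negative median of all lists, −0.33, with medians of −0.57 and −0.35 in the experiments and 6 of 15 genes at 4 negative arrays. Kdr, the main receptor for VEGF on blood vessels, gave −0.90 and −1.11 in experiment 1 and −2.04 and −1.05 in experiment 2, with a mean of −1.28 ± 0.18 and an adjusted p of 0.0252, and was the one call on the list. Pecam1, Flt1, Tie1, Cldn5 and Egfl7 were the others at 4 negative arrays. Of 11 smooth muscle and pericyte markers 4 were at 4 negative and 2 at 4 positive arrays; Mylk, the kinase that starts smooth muscle contraction, was called with −1.09 and −1.29 in experiment 1 and −0.98 and −0.68 in experiment 2 (mean −1.01 ± 0.16, adjusted p = 0.0364). Cdh13, a cadherin of vessels that binds adiponectin, was called at −1.08 ± 0.17, Tspan12, a tetraspanin of vessel development, at −1.24 ± 0.20, and the lipid phosphatase Plpp3 at −1.12 ± 0.17. On the same 4 arrays the germ line genes had medians between 0.41 and 0.68, and their part in the values of fat and vessel genes was not tested.

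Stroma and matrix genes were not called. Of 18 stroma genes 4 had 4 negative arrays (22.2%, against 9.31% of all features) and the medians were −0.01 and −0.31 in the experiments. The 31 extracellular matrix genes had medians of 0.02 and −0.38, with Adamts1, a matrix protease, at −0.65 and −0.75 in experiment 1 and −2.03 and −0.90 in experiment 2 (adjusted p = 0.0643) and Col1a1 at −0.71 ± 0.23 (adjusted p = 0.255).

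Immune cell lists lay near 0 on the direct arrays. The medians were −0.05 for 24 macrophage markers, 0.02 for 14 neutrophil markers, −0.07 for 18 T cell and NK markers, 0.03 for 13 B cell markers and −0.09 for 8 mast cell markers, with no call on any. Adgre1, the F4/80 antigen of macrophages, had a mean of 0.31 ± 0.17. Of 27 inflammatory mediators none was called; Tnf had a mean of 0.11 ± 0.20 and the chemokine Ccl2 one of −0.20 ± 0.17. Interferon response genes had 7 of 22 at 4 negative arrays (31.8%, against 9.31% of all features) and a median of −0.17. Iigp1, an interferon-induced GTPase, gave −0.94 and −0.83 in experiment 1 and −1.30 and −1.23 in experiment 2 and was called at −1.07 ± 0.16 (adjusted p = 0.0326). Antigen presentation genes had a median of −0.24, with Cd74, the invariant chain, at −0.39 and −0.54 in experiment 1 and −1.81 and −0.93 in experiment 2 (adjusted p = 0.148). Taken through STD, experiment 1 gave lower medians than its direct arrays for several of these lists, −0.83 for macrophage markers, −0.44 for T cell and NK markers, −0.49 for mast cell markers, −0.65 for inflammatory mediators and −0.98 for interferon response genes. Through HF0 the medians of experiment 1 for the same lists were 0.32, −0.08, −0.39, −0.63 and 0.01, so its routes differed.

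Stress and timing lists gave no negative call. The 23 immediate early genes had single-array medians of −0.25 and 0.32 in experiment 1 and −1.23 and −0.04 in experiment 2, so one array lay far below the others. Myc, a growth-promoting transcription factor, was near the threshold with −0.87 and −0.65 in experiment 1 and −1.83 and −1.26 in experiment 2 (adjusted p = 0.0555). The 22 hypoxia and glycolysis genes had a median of −0.12 with 6 at 4 negative arrays, and the 16 clock genes −0.08. The remaining marker lists had medians of 0.00 for 14 skeletal muscle genes, −0.20 for 7 erythroid genes, 0.02 for 8 nerve genes and −0.08 for 22 prostanoid and leukotriene genes, with no call on any of them.

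The other negative calls were of mixed function. Crisp3, a secreted cysteine-rich protein, gave −1.11 and −1.20 in experiment 1 and −1.32 and −1.84 in experiment 2, with a mean of −1.37 ± 0.17 and an adjusted p of 0.0172. Its values from arrays with another group differed widely in experiment 1 and are given below. Cltc, the clathrin heavy chain, was at −1.35 ± 0.22, the small membrane protein gene Smim10l1 at −1.30 ± 0.22, and Ddx3x, an X-linked RNA helicase, at −1.20 ± 0.18. Less negative calls, between −0.85 and −0.98, were the transcription factors Nfix and Klf9, the redox regulator Txnip, the stem cell factor gene Kitl, Rab14 of vesicle traffic, the deubiquitinase Mindy2 and Ms4a4c. Actb, measured by 305 probes, had a mean of −0.89 ± 0.30, and Gapdh, measured by 257, one of −0.05 ± 0.15; neither was called.

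**Figure D4:**
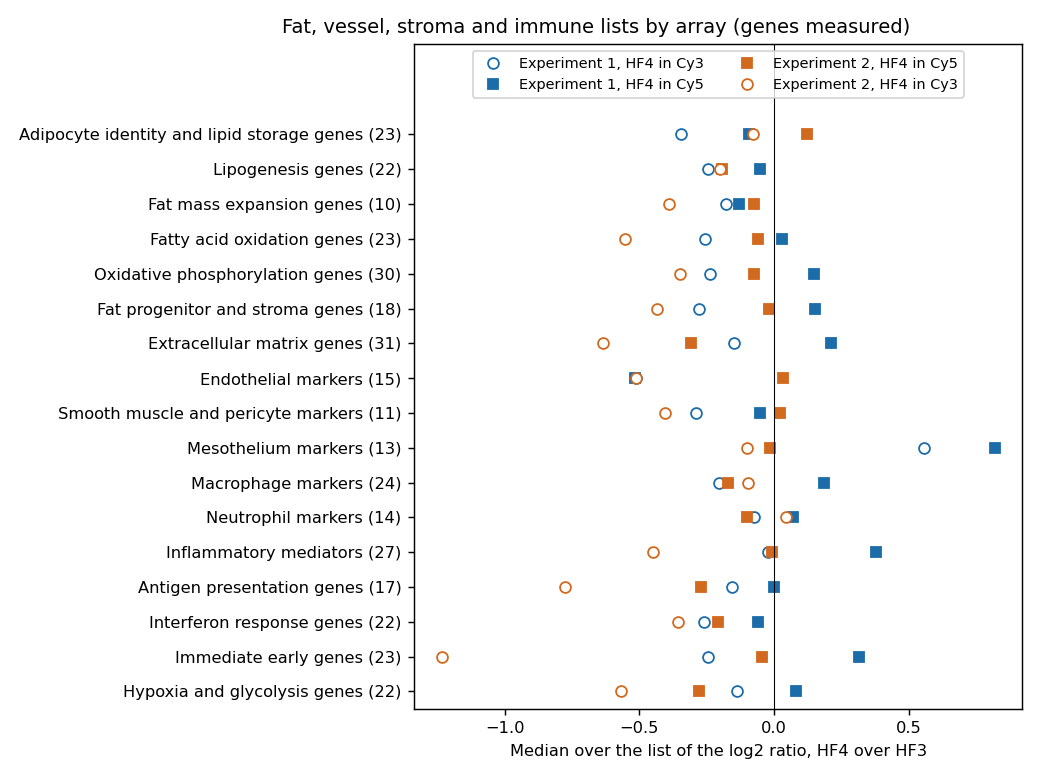
Median log2 ratio of HF4 over HF3 (coded as Cy5 over Cy3) over each of 17 lists on each of the 4 arrays, with experiment 1 in blue, experiment 2 in orange, open circles for HF4 in Cy3 and squares for HF4 in Cy5. Endothelial markers lay near −0.51 on 3 arrays and at 0.03 on the fourth, and the array of experiment 2 with HF4 in Cy3 had the lowest median for most lists, down to −1.23 for immediate early genes.

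Values of the experiments were alike in part. Over all 22879 features Pearson's r between the experiments was 0.475 and 59.9% of features had the same sign, given as a description, since the features of an array share its hybridisation. Within a dye swap r was 0.199 in experiment 1 and 0.198 in experiment 2. Between arrays of different experiments it was 0.365 with HF4 in Cy3 on both, 0.316 with HF4 in Cy5 on both, and 0.267 and 0.192 for opposite orientations. Arrays of one orientation were thus more alike across experiments than the arrays of one swap; the mean of a swap holds both orientations equally, so an additive dye effect cancels in it. The spread over features was 0.327 (SD) in experiment 1 and 0.435 in experiment 2.

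In 1240 genes with a symbol (6.66%) both arrays of one experiment were positive and both of the other negative. The 6 with the widest gap included Lcn5, described above. Cebpb, a transcription factor of adipocytes and inflammation, gave 0.25 and 0.47 in experiment 1 and −2.19 and −1.19 in experiment 2, and Per1, a clock gene that glucocorticoids induce, gave 0.25 and 0.64 in experiment 1 and −1.56 and −1.85 in experiment 2. Tuba3b, an alpha tubulin, gave 1.70 and 1.54 in experiment 1 and −0.87 and −0.25 in experiment 2, and Bnc1, a transcription factor of germ cells and epithelia, gave 1.23 and 0.33 in experiment 1 and −1.51 and −0.99 in experiment 2. Lmod2, a muscle actin nucleator, gave −0.11 and −0.09 in experiment 1 and 0.45 and 3.595 in experiment 2, a gap that came from a single array. The mesothelium list, genes of the layer that covers the fat pad, had medians of 0.72 in experiment 1 and −0.21 in experiment 2 over 13 genes, with Krt8 and Slpi among 3 genes at 4 positive arrays.

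The arrays with another group gave HF4 over HF3 again, as the difference of 2 pairings. The labels name the same groups and do not say whether the RNA was the same, so these arrays were not counted as further replicates. For the 139 germ line genes experiment 2 gave a median of 0.43 directly, 0.55 through HF0 and 0.37 through HF1. Experiment 1 gave 0.70 directly and 0.97 through STD, but −0.48 through HF0, the route that holds the arrays labelled HF3 with HF0 and HF4 with HF0. Over all features, Pearson's r of the direct values of experiment 1 was 0.569 with those through STD and −0.492 with those through HF0. In experiment 2 it was 0.662 through HF0 and 0.616 through HF1. Over the 413 positive calls the medians were 1.30 directly, 2.10 through STD and −0.85 through HF0 in experiment 1, and 1.16, 1.41 through HF0 and 1.13 through HF1 in experiment 2. The median of the positive calls thus kept its side by every route but that through HF0 in experiment 1.

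The 20 negative calls behaved otherwise in experiment 1. Their median was −0.90 directly, 0.02 through STD and 1.23 through HF0, against −1.07 directly, −1.06 through HF0 and −1.12 through HF1 in experiment 2. Cd36 was −1.33 directly, −0.06 through STD and 2.62 through HF0 in experiment 1, and −2.19, −2.40 and −2.22 in experiment 2. Kdr was −1.01, 0.20 and 1.63 in experiment 1 and −1.55, −1.64 and −1.66 in experiment 2. Crisp3 was −1.15 directly, 2.86 through STD and −2.93 through HF0 in experiment 1, and −1.58, −1.09 and −2.26 in experiment 2. In the median, the other routes of experiment 1 therefore did not give the negative values that its direct arrays gave, with or without the arrays labelled HF3 with HF0, and the negative calls rest on the direct arrays and on experiment 2. The endothelial list showed the same, at −0.57 directly, 0.20 through STD and 0.64 through HF0 in experiment 1 and −0.35, −0.34 and −0.27 in experiment 2. The mesothelium list, at 0.72 directly in experiment 1, was −0.29 through STD and −1.31 through HF0.

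**Figure D5:**
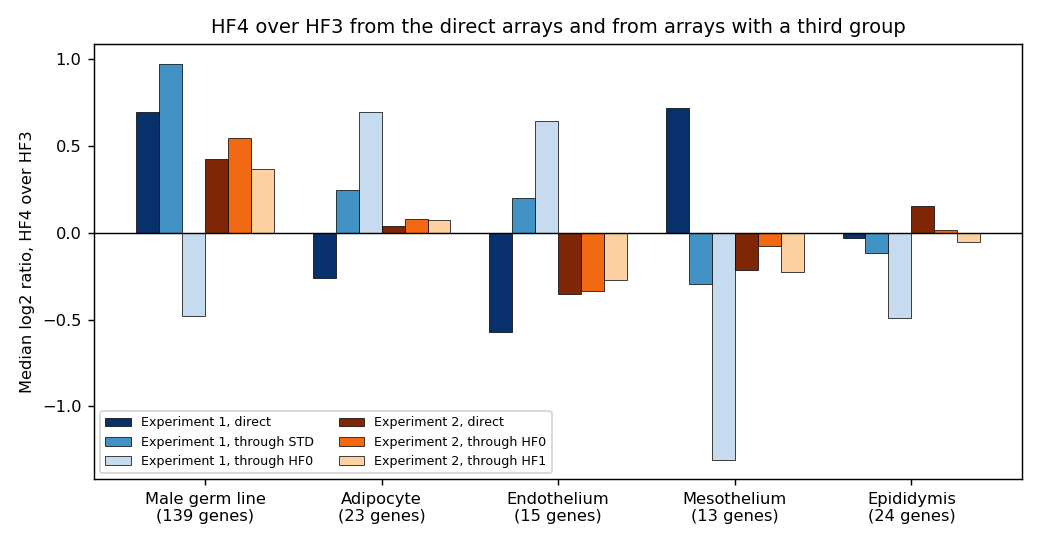
Median log2 ratio of HF4 over HF3 (coded as Cy5 over Cy3) for 5 gene lists, from the direct arrays and from arrays with another group, in experiment 1 (blue) and experiment 2 (orange), each bar starting at 0. The germ line median was positive by 5 of 6 routes and −0.48 through HF0 in experiment 1, whereas the adipocyte and endothelial medians of experiment 1 changed side between routes.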

How the data were processed

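The table the authors deposited holds 1 log ratio of the 2 dyes per probe and array, taken here as log2, for 25344 probes on 34 arrays, with no missing value. Its background correction, normalization, log base and numerator dye: not given in the sources used here. Values reach 7.99, while the log10 ratio of 16-bit signals cannot exceed 4.82, so base 2 was taken, and a natural log cannot be told apart. Labelling used Ambion reagents in both experiments, per the labels' protocols.

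Probes were named from the platform annotation, with symbols updated through gene IDs to RefSeq for 20456 of 21082 probes that have 1 symbol; 30 probes with several symbols and 4232 without were kept unnamed. Probes of a gene were averaged, giving 22879 features, of which 18617 have a symbol. Each of the 4 arrays was turned to HF4 over HF3 and centred on its median (medians before centring between −0.0505 and 0.0341). The arrays of a dye swap were averaged into 1 value per experiment (n = 2), and limma 3.58.1 in R 4.3.3 (lmFit with an intercept, eBayes, prior df of 5.485) tested the mean against 0, adjusted over all features at a threshold of 0.05. Tables were made with Python 3.11.15, numpy 2.4.6 and pandas 2.3.3. The scripts were tested on simulated data.

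The 41 gene lists and the members were chosen with earlier results of these data known, and lists are described by counts and medians without a test of their own. Genes named in the text are the 12 most positive and 12 most negative calls with all 4 arrays on one side, up to 3 called members of each list or, with none called, up to 2 with all arrays on one side, a set of genes of fat, testis and reference kept in any case (Insl3 among them was not measured), and the 6 genes whose experiments differ most. Further called members of lists and the calls outside this rule were named after their values were seen. Alternatives tried were other ways to normalize, to treat probes and to set the error, the other arrays of the series, and leaving out each array.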

Additional observations from a re-analysis of the deposited data

Results flagged for a closer look

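Among the 116 genes named by rule and the 42 list medians, a single array stood apart from the rest of HF4 with HF3 in these cases. With 4 values, chance sets such a mark on about 1 in 20 groups, so several marks arise by chance alone. The array of experiment 2 with HF4 in Cy3 was the lowest for Acly, an enzyme of lipogenesis (−1.59), for Aqp7, the glycerol channel (−1.02), for Hspa4l, a chaperone of the testis (1.08), and for Kit, the stem cell factor receptor (−0.98). The array of experiment 2 with HF4 in Cy5 was the highest for Amh, the Sertoli cell hormone (0.77), for Lmod2, a muscle protein (3.595, where the other arrays lay between −0.11 and 0.45), and for Xist, the RNA that silences an X chromosome in females (0.64). The same array had the highest median of the B cell markers (0.21) and of the endothelial markers (0.0327).

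The experiments lay on opposite sides, with both arrays of each on its side (for a list, the medians of both arrays), among the genes named by rule and the lists, in the cases that follow; the differences between experiments were not tested. Akap4 of the sperm tail was at 0.69 in experiment 1 and −0.36 in experiment 2, and Tuba3b, a tubulin, at 1.62 and −0.56. Bnc1 was at 0.78 and −1.25. Cebpb was at 0.36 and −1.69, Per1 at 0.45 and −1.70, and Tnf at 0.45 and −0.23. Lcn5 of the epididymis was at −2.59 and 0.23, and Lmod2 at −0.10 and 2.02. The list medians were −0.0314 and 0.15 for epididymis epithelium, 0.0588 and −0.14 for cholesterol synthesis, 0.72 and −0.21 for mesothelium, and 0.0048 and −0.16 for prostanoid and leukotriene genes.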

How the results depend on the processing

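All 477 calls kept their direction under each alternative run on the 4 arrays (476 of 476 where features with unlike dyes were left out). They also kept it in the fit over the whole series, which includes these arrays. In 475 of the 477 all 4 arrays had the same sign, so alternatives on these arrays could hardly change a direction. In the other arrays alone 470 kept their direction. Aqp7, Car3 and Smim10l1, all negative calls, were among those that did not. The 25 negative calls are few beside the 452 positive ones, so the 470 mainly describe the positive side. The counts of calls, in all and on the positive and negative side, were 477, 452 and 25 as reported. They were 1312, 917 and 395 with the 4 arrays as separate values and the experiment as a random block, 1004, 722 and 282 after quantile normalization, and 221, 213 and 8 with each probe on its own. In the random block fit the estimated correlation between the arrays of an experiment was −0.37. A negative value narrows the SE of the mean and so raises the count of calls. Negative calls were 98 without centring and 53 without features whose dye swap differed by over 2. Counts were 0 on each side after scale normalization, in the whole-series fit and in the other arrays alone, where 2907, 1259 and 1604 features had an unadjusted p under 0.05 (lowest adjusted p by limma 0.121, 0.497 and 0.0697). Leaving out 1 array gave 195 to 650 calls, 190 to 550 positive and 4 to 100 negative. Among the germ line genes 16 to 53 were then called, against 35.

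Both of the following were chosen after seeing the data. The other arrays with experiment 1 taken through STD alone gave 813 calls, 729 positive and 84 negative, 430 of the 477 were among them and 474 kept their direction. The whole-series fit without the experiment 1 arrays of HF3 with HF0 gave 0, with 1647 at an unadjusted p under 0.05 and a lowest adjusted p of 0.303.

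Results with all 4 arrays on one side changed side as follows, and the cause was not tested. In the other arrays alone the lipogenesis median became 0.10, Acly 0.11, Alox15 −0.34, Aqp7 0.10, Car3 0.48, Cav2 0.15, Il7r −0.093, Krt8 −0.044, Myh7 −0.074, Saa3 −0.14, Scd1 0.43, Slpi −0.42 and Smim10l1 0.035. With experiment 1 through STD alone the lipogenesis median became 0.064, Alox15 −0.34, Cav2 0.31, Ceacam10 0.44, Crisp3 0.59, Cuzd1 1.19, Il7r −0.14, S100a8 −0.17, Saa3 −0.16, Scd1 0.072, Slpi −0.029 and Spink12 0.35. Alox15 became −0.0012 in the whole-series fit and −0.030 without the arrays of HF3 with HF0, where Il7r became −0.0023. The Sertoli cell median was −0.011 in experiment 1 alone. Counting every sign change, in list medians near 0 and genes with mixed arrays too, 14 of 42 list medians and 20 of 116 named genes changed sign in the other arrays alone, and 13 and 17 with experiment 1 through STD alone. In the other arrays alone the endothelial median became 0.046, adipocyte 0.25, smooth muscle 0.028, mesothelium −0.42 and epididymis −0.18. With experiment 1 through STD alone Tnf became −0.80, Adgre1 −0.46 and Retn 0.47, and the medians became −0.45 for macrophage markers, −0.51 for inflammatory mediators and −0.71 for interferon response genes. Of the list medians 11 changed sign in experiment 1 alone and 5 in experiment 2 alone, 4 after scale normalization and 4 after quantile normalization; leaving out 1 array changed the sign of 3 to 10. Each of the 4 arrays pairs HF4 with HF3 within itself, so the fits on these 4 arrays are of within-array pairs. The fits on the other arrays take differences between arrays, and the whole-series fit combines both kinds. The fit with the experiment as a random block is given above. A further block by replicate number could not be made, since the labels give none within an experiment. Without intensities, dim spots could not be told from bright ones.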

Other observations

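Some single genes were much lower in experiment 2 than in experiment 1; the 5 that follow were picked for this after their values were seen and stand for no group, none was called, and the difference between experiments was not tested. Values follow with the array that holds HF4 in Cy3 first. Ptx3, a pentraxin that inflamed stroma secretes, gave −0.26 and −0.02 in experiment 1 and −3.25 and −2.38 in experiment 2. Adamts5, a protease that cleaves aggrecan, gave −0.74 and −0.56 against −2.70 and −2.47. Tnfaip6, a hyaluronan-binding protein, gave −0.91 and −0.55 against −2.43 and −2.25. Lum, the collagen-binding proteoglycan lumican, gave −0.35 and −0.34 against −1.70 and −2.51, and Emp1, a membrane protein, −0.39 and −0.26 against −2.81 and −2.28. Their adjusted p-values by limma were 0.335 for Ptx3, 0.150 for Adamts5, 0.108 for Tnfaip6, 0.235 for Lum and 0.261 for Emp1.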
